A study of Bos taurus with 14 samples.

Results

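Cumulus cells of oocytes that later became blastocysts were set against cumulus cells of oocytes that never cleaved, the pair of groups at opposite ends of development in this series. The comparison used 9 of the 14 libraries of the series. They are the 5 libraries whose oocytes gave blastocysts (Bl+, replicates 10 to 14) and the 4 libraries whose oocytes stayed undivided (Cl-, replicates 1 to 4). All came from cattle (Bos taurus), and each was made from the cumulus cells of 10 complexes pooled together, so a value is an average over a pool and not over a single follicle. The labels give no treatment, age, breed or animal for either group, nor do they say if any pools shared an animal or a day. P-values therefore measure only the spread between these libraries, which may be technical. The remaining group, whose oocytes cleaved but stopped before the blastocyst stage (Bl-, 5 libraries), stayed outside the fit and is given only as a reference level beside single transcripts.

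Cumulus cells are the granulosa-derived somatic cells that enclose the oocyte in the ovarian follicle. They are coupled to it by gap junctions, feed it with pyruvate and other metabolites, and lay down the hyaluronan-rich matrix that expands before ovulation. Because they can be collected without harming the oocyte, their RNA has long been examined as a readout of the competence of the oocyte they surrounded.

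Expression was given in TPM, the number of transcripts of a kind per 1000000, a relative unit which has the same total in each library. Of 38030 listed transcripts, 10700 had at least 10 TPM in at least 4 of the 9 libraries and were compared, and 8780 of these reached that level in all 9. The minimum kept transcripts with a median level of 9.78 TPM among the 259 that reached it in exactly 4 libraries, and left out those with a median of 9.14 TPM among the 303 that reached it in exactly 3. The 10700 transcripts held 95.7% to 96.8% of the TPM of each library. They carry Ensembl bovine transcript identifiers, and none matched the reference gene table (0 of 38030), so they stand without gene names, positions or sequences. The check of cumulus cell identity by marker genes could not be made for the same reason. Estimated depth was 30.6 to 39.4 M fragments (M, 1000000) in Bl+ and 28.6 to 39.8 M in Cl-.

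No single transcript set the cumulus cells of the 2 groups apart after adjustment for the number of transcripts compared. No transcript passed an adjusted p of 0.05 in limma, a linear model fitted across all 10700 transcripts on log2(TPM + 1). That was 0% called, on the deposited scale and also after the libraries had been rescaled by trimmed means, which removes a shift shared by most transcripts of a library. The smallest adjusted p (Benjamini-Hochberg) was 0.121 on the deposited scale and 0.105 after rescaling, both for ENSBTAT00000020424.6. Without adjustment, 757 transcripts (7.07%) had a p under 0.05 on the deposited scale and 722 (6.75%) after rescaling.

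The data bounded most differences tightly. On the deposited scale the middle of the distribution was narrow, with its lower quartile at -0.16 and its upper quartile at 0.03 on the log2 scale. For 10145 transcripts (94.8%) the 95% interval, not adjusted for their number, excluded a change of TPM + 1 larger than 2-fold in either direction, and for 8391 (78.4%) it excluded one larger than 1.5-fold. After rescaling these numbers were 10227 (95.6%) and 8692 (81.2%). The precision followed abundance. The median standard error was 0.155 in the least abundant 2140 transcripts (7.62 to 15.0 TPM on average) and 0.0856 in the most abundant 2140 (75.8 to 11864 TPM), where the interval stayed inside a 1.5-fold change for 60.7% and 87.2% of transcripts.

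**Figure D1:**
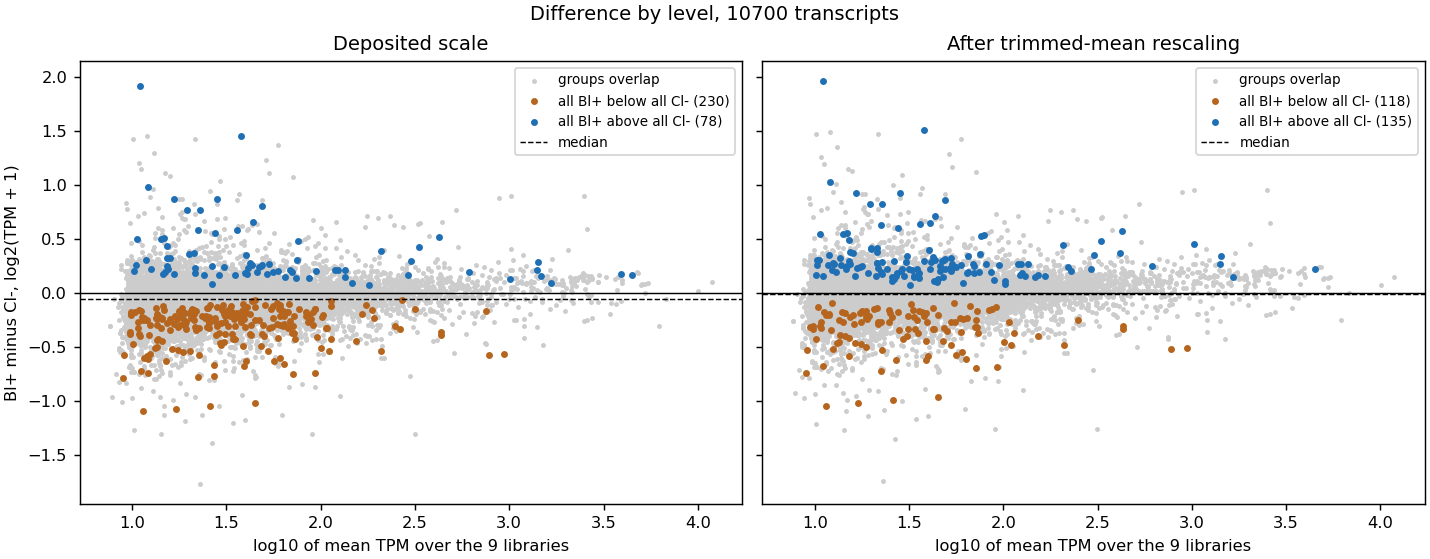
Difference between Bl+ and Cl- on the log2(TPM + 1) scale against the log10 of mean TPM, 1 point per transcript (10700), before and after trimmed-mean rescaling. Coloured points are transcripts whose 5 Bl+ libraries lay all below or all above the 4 Cl- libraries, and the dashed line is the median, at -0.06 before and -0.01 after rescaling.

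Transcripts higher in cumulus cells of blastocyst-forming oocytes were led by ENSBTAT00000020424.6, a transcript of 1645 bases. It stood at 55.7, 52.4, 38.7, 43.0 and 76.8 TPM in Bl+ replicates 10 to 14, and at 16.5, 20.1, 16.6 and 20.4 TPM in Cl- replicates 1 to 4. Every Bl+ library lay above every Cl- library, and the lowest Bl+ value was well clear of the highest Cl- value. The mean was 53.3 ± 14.8 TPM in Bl+ (SD, n = 5) and 18.4 ± 2.13 in Cl- (SD, n = 4), a ratio of 2.90. Its difference was 1.45 on the deposited log2 scale (SE 0.178, limma adjusted p = 0.121) and 1.503 after rescaling (SE 0.184, limma adjusted p = 0.105). These values rest on an estimated 1117 to 2501 fragments per Bl+ library and 411 to 706 per Cl- library. The Bl- libraries, outside the fit, held 13.8, 11.6, 39.5, 19.4 and 30.4 TPM in replicates 5 to 9, so they spanned the gap from below the Cl- values to just inside the range of Bl+.

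The call for ENSBTAT00000020424.6 depended on which libraries entered. It passed in limma without Bl+ replicate 14, its highest library (adjusted p = 0.0422 on the deposited scale and 0.0192 after rescaling). It passed as well when libraries were weighted by their agreement with the fit (adjusted p = 0.00807 and 0.00663). Over all alternatives its difference stayed between 1.29 and 1.55 on the deposited scale, and the adjusted p ran from 0.00807 to 0.764.

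The next transcript higher in Bl+ was ENSBTAT00000016095.4, of 660 bases. It was under 10 TPM in every Cl- library and entered the comparison only through Bl+, so its direction was fixed by the minimum and its p-values are a description, not support. It was at 18.2, 17.4, 13.1, 21.2 and 13.3 TPM in Bl+ replicates 10 to 14 and at 3.13, 2.08, 3.10 and 7.61 TPM in Cl- replicates 1 to 4. The groups did not overlap, and Cl- replicate 4 was the Cl- library nearest to Bl+. The ratio of the means was 4.17, from 16.6 ± 3.44 TPM in Bl+ (SD, n = 5) and 3.98 ± 2.47 in Cl- (SD, n = 4). Its difference was 1.91 (SE 0.283, limma adjusted p = 0.296) on the deposited scale and 1.96 (SE 0.278, limma adjusted p = 0.191) after rescaling. Depth was thin here, with an estimated 17 to 85 fragments per Cl- library and 123 to 236 per Bl+ library. Its adjusted p depended on the libraries, from 0.00839 with libraries weighted in that way to 0.994 over all alternatives on the deposited scale, and was 0.0220 without Cl- replicate 4. The Bl- libraries held 18.5, 11.7, 9.02, 6.80 and 24.6 TPM, from inside the Cl- range to above the highest Bl+ value.

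Among transcripts lower in Bl+ whose groups did not overlap on either scale, the smallest p belonged to ENSBTAT00000016001.6, of 1709 bases. It was at 41.8, 43.9, 34.9, 42.1 and 40.1 TPM in Bl+ replicates 10 to 14 and at 62.1, 52.3, 62.3 and 53.3 TPM in Cl- replicates 1 to 4. All Bl+ values lay below all Cl- values, with Bl+ replicate 12 the lowest. The difference was -0.49 (SE 0.087, limma adjusted p = 0.351) on the deposited scale and -0.44 (SE 0.076, limma adjusted p = 0.363) after rescaling. In Bl- it was at 45.2, 47.0, 42.5, 42.8 and 42.0 TPM, below every Cl- library and close to the Bl+ values.

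ENSBTAT00000057533.3, of 2541 bases and the other lower transcript named here, was among the more abundant ones. It stood at 639, 705, 578, 617 and 646 TPM in Bl+ replicates 10 to 14 and at 1027, 790, 1111 and 876 TPM in Cl- replicates 1 to 4. The groups did not overlap, and the Cl- values were spread more widely than the Bl+ values, with SDs of 145 TPM (n = 4) and 46.5 TPM (n = 5). Its difference was -0.57 (SE 0.103, limma adjusted p = 0.371) on the deposited scale and -0.51 (SE 0.1001, limma adjusted p = 0.494) after rescaling. At 26857 to 50469 estimated fragments per library, counting error was small beside the spread between libraries. The Bl- libraries held 621, 750, 636, 677 and 798 TPM, of which 1 exceeded the lowest Cl- value.

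**Figure D2:**
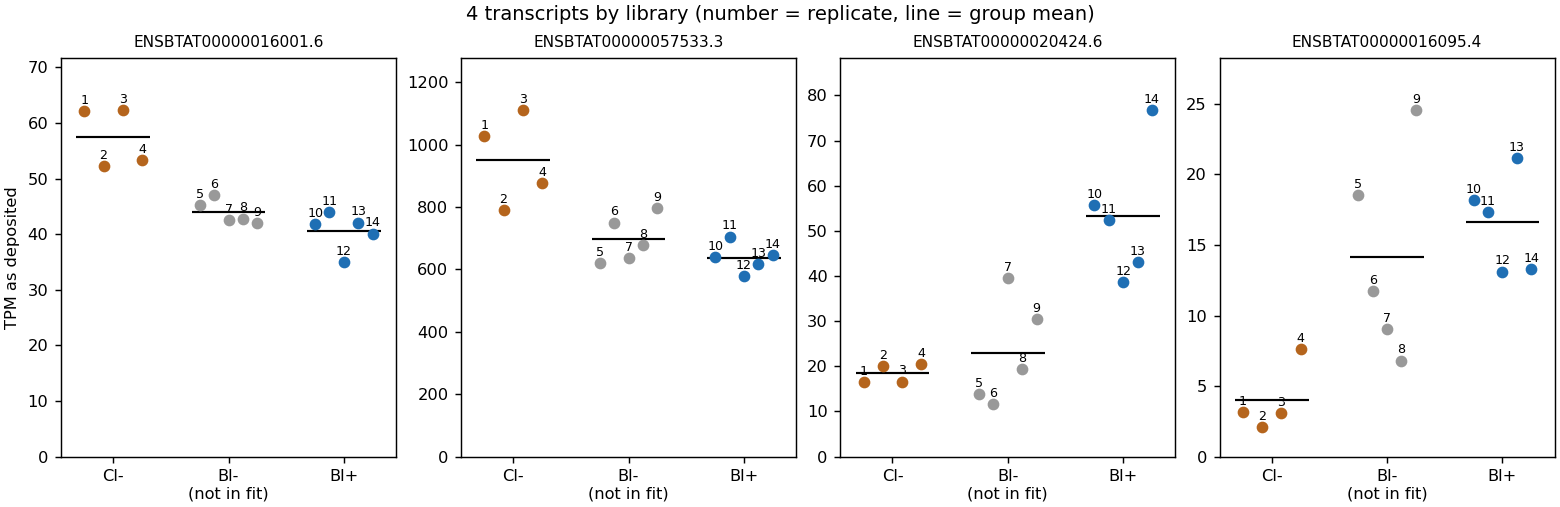
TPM as deposited of the 4 transcripts in each library, with the replicate number at each point and a line at the group mean. Bl+ and Cl- do not overlap for any of the 4, which were picked for that. The Bl- libraries (grey, not in the fit) overlap Bl+ in all 4, and overlap Cl- in all but ENSBTAT00000016001.6.

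Large differences were few. On the deposited scale 19 transcripts were more than 2-fold lower in Bl+ and 15 more than 2-fold higher. Of these, 6 and 9 had an unadjusted p under 0.05 (7.07% over all transcripts in either direction), in sets chosen by size of difference. Their median standard errors were 0.772 and 0.512, against 0.111 over all transcripts. The lowest value came from Bl+ replicate 12 or 14 in 14 of the 19, and the highest value from these libraries in 9 of the 15. Sets chosen by difference tend to have that extreme in Bl+. Over all 10700 transcripts, replicates 12 and 14 held the lowest value for 3193 and 2571, and the highest for 1477 and 1091. Without those libraries 8 transcripts were more than 2-fold lower and 9 more than 2-fold higher. They were left out with their values known, so this drop is only a description. Of all transcripts beyond 2-fold on both scales, 4 had groups that did not overlap on either scale, 2 in each direction. The higher ones are the pair named above. A transcript of 7556 bases, singled out after its values were seen, was at 14.3, 13.6, 20.4 and 17.5 TPM in Cl- and at 12.3, 6.83, 7.87, 6.46 and 4.07 TPM in Bl+ (difference -1.09, 95% interval -1.65 to -0.53, limma adjusted p = 0.621). The other lower transcript, of 2646 bases, had its Cl- mean lifted by 1 library, at 49.3 TPM in Cl- replicate 4 against 15.3 to 19.0 TPM in the other Cl- libraries, with at most 14.8 TPM in Bl+.

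Few transcripts were present at the minimum in 1 group only. Just 3 reached 10 TPM in all 4 Cl- libraries and in no Bl+ library, and 11 did so in at least 4 Bl+ libraries and in no Cl- library. These rules are unlike, because the minimum of 4 libraries asks for every Cl- library but lets 1 of the 5 Bl+ libraries fall short. With all libraries of a group required, the counts were 3 and 2, so the 11 are no sign of an excess in Bl+. Such transcripts passed the minimum through the group where they were high, so their direction was fixed by it. The 3 ranged from 10.002 to 12.1 TPM in Cl- and from 2.90 to 9.94 TPM in Bl+, and the 11 from 0 to 9.96 TPM in Cl- and from 3.52 to 30.4 TPM in Bl+. The 2.90 TPM was that of ENSBTAT00000071414.1 (2217 bases) in Bl+ replicate 13. Another entry of the same length, ENSBTAT00000026451.6, had the same TPM in every other library but 16.5 TPM in that one. How reads were divided between these entries was not tested. Of the 11, 2 reached the minimum in all 5 Bl+ libraries. They are ENSBTAT00000016095.4 and a transcript of 1728 bases, at 10.4 to 15.1 TPM in Bl+ and 7.73 to 9.42 TPM in Cl-.

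The 5 Bl+ libraries lay entirely below the 4 Cl- libraries for 230 transcripts (2.15% of those compared) and entirely above them for 78 (0.729%) on the deposited scale. After rescaling the balance turned, to 118 below (1.10%) and 135 above (1.26%). On both scales at once 109 of the 10700 were below and 72 above. Full separation of 5 from 4 libraries, in either direction, is the outcome with the smallest p of the exact permutation test here (two-sided p = 0.0159). If the libraries were interchangeable, an expected share of 0.0159 of transcripts would therefore separate, divided evenly between the directions. The 78 above on the deposited scale (0.729%) did not exceed their part of that share, and the 72 above on both scales are among them. Whether the other counts exceed it was not tested, so the sizes and lengths that follow are descriptions only. The 109 differed by -0.37 at the median on the deposited scale (-0.14 to -1.09), and the 72 by 0.25 (0.08 to 1.91), so that most transcripts whose groups separated did so by small amounts. The 109 had a median length of 2973 bases and the 72 a median of 1591 bases, with 2142 bases over all transcripts compared.

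The direction of the small differences depended on the scale. On the deposited scale 7171 transcripts (67.0%) had a lower mean log2 level in Bl+, and the median difference was -0.06. Of those at an unadjusted p under 0.05, 501 were lower (4.68%) and 256 higher (2.39%), so 66.2% were lower. After rescaling the median difference was -0.01, 51.7% of transcripts were below 0, and 285 were lower (2.66%) and 437 higher (4.08%) at that p, so 39.5% were lower. Leaving out single Cl- libraries moved several of these numbers by over 1.5 times. On the deposited scale there were 262 lower and 139 higher without Cl- replicate 1, and 296 and 157 without Cl- replicate 3. Without Cl- replicate 4 there were 683 lower, a smaller move, and 412 higher. After rescaling there were 207 higher without Cl- replicate 1, and 175 lower and 267 higher without Cl- replicate 3.

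The lowest levels were those of 2 of the 5 Bl+ libraries. Relative to the mean of the 9 libraries, the median deviation was -0.05 in both Bl+ replicate 12 and Bl+ replicate 14, and between 0.00 and 0.04 in Bl+ replicates 10, 11 and 13. In Cl- it ran from 0.00 in replicate 4 to 0.07 in replicate 1. The trimmed-mean factors were 0.948 and 0.947 in Bl+ replicates 12 and 14 and 0.999 to 1.06 in the other 7 libraries. The difference in this factor was within the spread between libraries (exact permutation test, two-sided p = 0.143, adjusted p = 0.304 over 9 library measures, smallest p possible 0.0159). Without Bl+ replicates 12 and 14, left out with these values known, the median difference was -0.02, 56.8% of transcripts were below 0, and 302 were lower and 208 higher at an unadjusted p under 0.05.

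With all 9 libraries the median difference was ordered by transcript length, though the contrast per library did not pass, as given below. In 5 equal classes by transcript length, the median difference on the deposited scale went from -0.02 (153 to 1242 bases) through -0.04, -0.05 and -0.07 to -0.11 (3559 to 21570 bases). The share below 0 went from 54.0% to 82.0% over the same classes. Rescaling shifts all classes nearly alike, and the medians then ran from 0.04 in the shortest class to -0.05 in the longest. At an unadjusted p under 0.05 on the deposited scale, 63 transcripts were lower and 91 higher in the shortest class, and 146 were lower and 19 higher in the longest. The longest class was below the shortest within each of 5 classes of abundance, by differing amounts: among the most abundant transcripts the median was 0.03 for the 728 shortest and -0.08 for the 260 longest, whereas among the least abundant the values were -0.12 and -0.13.

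Bl+ replicates 12 and 14 had the lowest levels of long transcripts relative to short ones. The median deviation of the longest class minus that of the shortest was -0.28 in Bl+ replicate 12 and -0.13 in Bl+ replicate 14. In Bl+ replicates 10, 11 and 13 it was 0.10, 0.03 and 0.01, within the range of the Cl- libraries (0.11, 0.01, 0.08 and 0.04 in replicates 1 to 4). The group means of this contrast were -0.05 ± 0.15 in Bl+ (SD, n = 5) and 0.06 ± 0.05 in Cl- (SD, n = 4), and their difference did not pass (exact permutation test, two-sided p = 0.206, adjusted p = 0.304). Without these 2 libraries the class medians ran from -0.01 in the shortest to -0.02 in the longest. They were left out with their contrasts known, so a smaller order was bound to follow and only its size is given. The part of RNA integrity, library date or the make-up of these pools in this pattern was not tested.

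**Figure D3:**
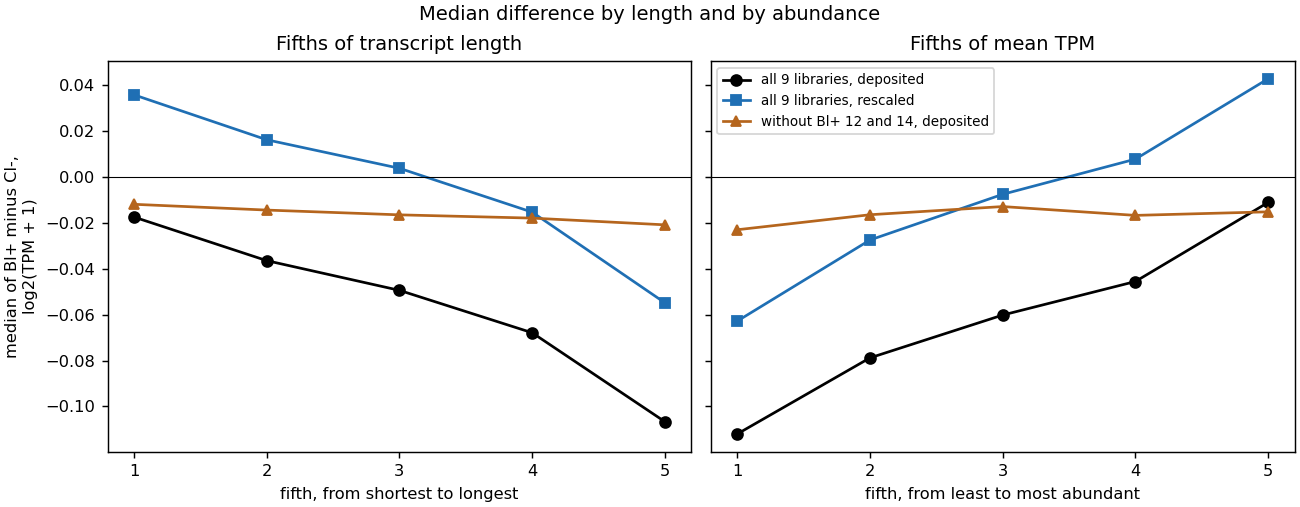
Median difference between Bl+ and Cl- on the log2(TPM + 1) scale in 5 equal classes of transcript length and of mean TPM, 2140 transcripts each. With all 9 libraries the deposited medians run from -0.02 to -0.11 with length and from -0.11 to -0.01 with abundance, and without Bl+ replicates 12 and 14 they stay between -0.01 and -0.02.

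Abundance showed the opposite order. The median difference on the deposited scale was -0.11 in the least abundant class, then -0.08, -0.06 and -0.05, and -0.01 in the most abundant. Per library, the most abundant class minus the least abundant differed by 0.08 between groups. That difference did not pass (exact permutation test, two-sided p = 0.270, adjusted p = 0.304). This contrast was highest in Bl+ replicates 12 and 14, at 0.17 and 0.12. Without these libraries, left out with their values known, the class medians stayed between -0.01 and -0.02. Among the 100 most abundant transcripts, all above 1452 TPM on average, 76 had a higher mean log2 level in Bl+ and the median difference was 0.09. Over all transcripts 67.0% were lower. After rescaling 81 of the 100 were higher, with a median difference of 0.147, and 51.7% of all transcripts were lower. None of these 100 lay entirely below Cl- (2.15% over all transcripts) and 4 lay entirely above (0.729% over all), or 2 above after rescaling (1.26% over all). Their smallest limma adjusted p was 0.664. Together they took 28.6% ± 0.81 of the TPM in Bl+ (SD, n = 5) and 27.4% ± 0.85 in Cl- (SD, n = 4), with p = 0.0635 by a two-sided exact permutation test (adjusted p = 0.190). Bl+ replicates 12 and 14 had the highest shares, 29.6% and 29.2%. Without them 67 of the 100 were higher in Bl+ on the deposited scale, with a median difference of 0.05, and 56.8% of all transcripts were lower.

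**Figure D4:**
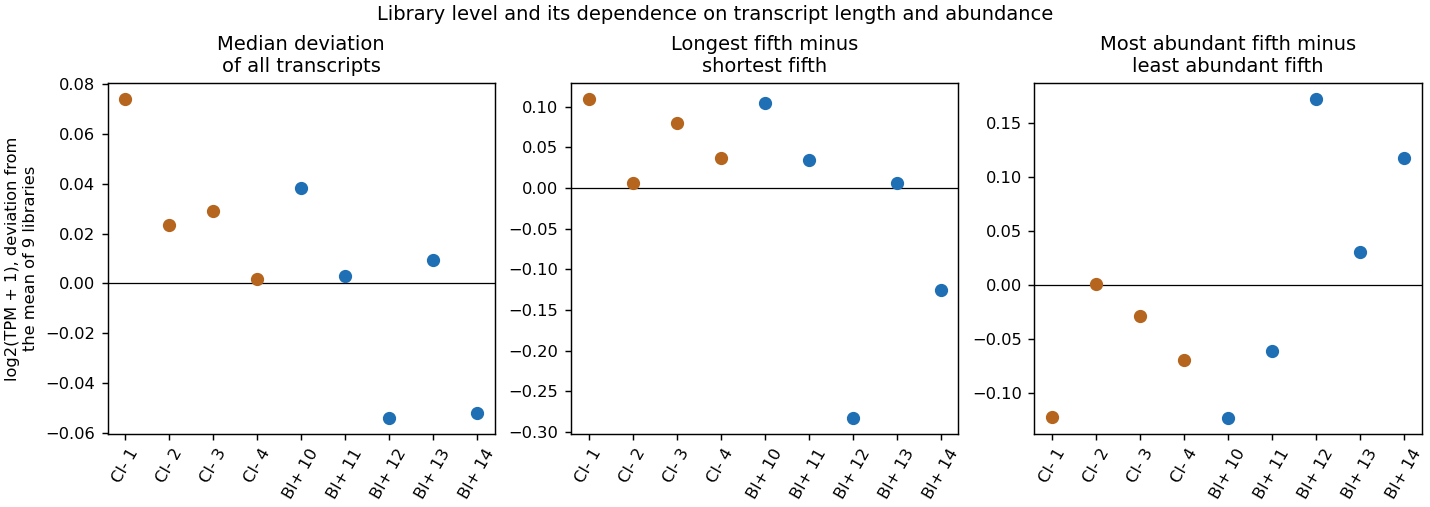
For each of the 9 libraries, the median deviation of log2(TPM + 1) from the mean of the 9, and the difference of that deviation between the longest and shortest and between the most and least abundant 2140 transcripts. Bl+ replicates 12 and 14 stand at -0.28 and -0.13 in the length panel and at 0.17 and 0.12 in the abundance panel, apart from the other 7 libraries.

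The Bl+ pools lay farther from each other than the Cl- pools did, though the difference did not pass after adjustment. The mean distance of a library to the others of its group (root mean square difference of log2(TPM + 1)) was 0.422, 0.378, 0.510, 0.372 and 0.443 in Bl+ replicates 10 to 14 and 0.296, 0.291, 0.294 and 0.351 in Cl- replicates 1 to 4. Every Bl+ library was farther from its group than any Cl- library was. The exact permutation test gave the smallest p this design allows (two-sided p = 0.0159, adjusted p = 0.0714 over 9 measures). Distances of libraries in a group share pairs, so they are not independent, and a single far library raises those of all the others in its group. They were also not recomputed for each arrangement, so this p is a description and not a valid test of spread. The standard deviation was larger in Bl+ for 7290 of 10700 transcripts (68.1%), with a median of 0.174 against 0.129 in Cl-. After rescaling it was larger in 7550 (70.6%).

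The 2 libraries farthest from their group were again Bl+ replicates 12 and 14. They were left out with these values known, which had to lower the distance, so what follows is a description. Among Bl+ replicates 10, 11 and 13 the mean distance was 0.320, near the 0.308 among Cl- libraries and the 0.312 between the groups. The median standard deviation of these 3 libraries was 0.114. With all libraries the mean distance was 0.425 within Bl+, 0.308 within Cl- and 0.381 between groups. The excess of Bl+ over Cl-, 0.117, was 0.060 without replicate 12 alone. It was 0.105 without replicate 14 alone, near the 0.119 without replicate 10 alone. The closest pair of all 9 libraries was Bl+ replicates 10 and 11, at 0.253.

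Bl+ replicates 12 and 14 did not stand apart in the same way. Bl+ replicate 12 held the lowest of the 9 values for 3193 transcripts and the highest for 1477, and Bl+ replicate 14 the lowest for 2571 and the highest for 1091. After rescaling, replicate 12 was lowest for 2588 and highest for 2356, and replicate 14 lowest for 1808 and highest for 2011. Cl- replicate 1 was highest for 1953 transcripts before rescaling and for 907 after it. On the first 2 principal components of the rescaled values (32.7% and 27.5% of the variance), both libraries were low on the first, at -33.2 and -17.9, with the other 7 at -5.15 or above. On the second they lay at opposite ends, at 23.7 for replicate 12 and -25.7 for replicate 14. Their depth, 30.7 and 35.8 M fragments, was inside the range of the other libraries.

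**Figure D5:**
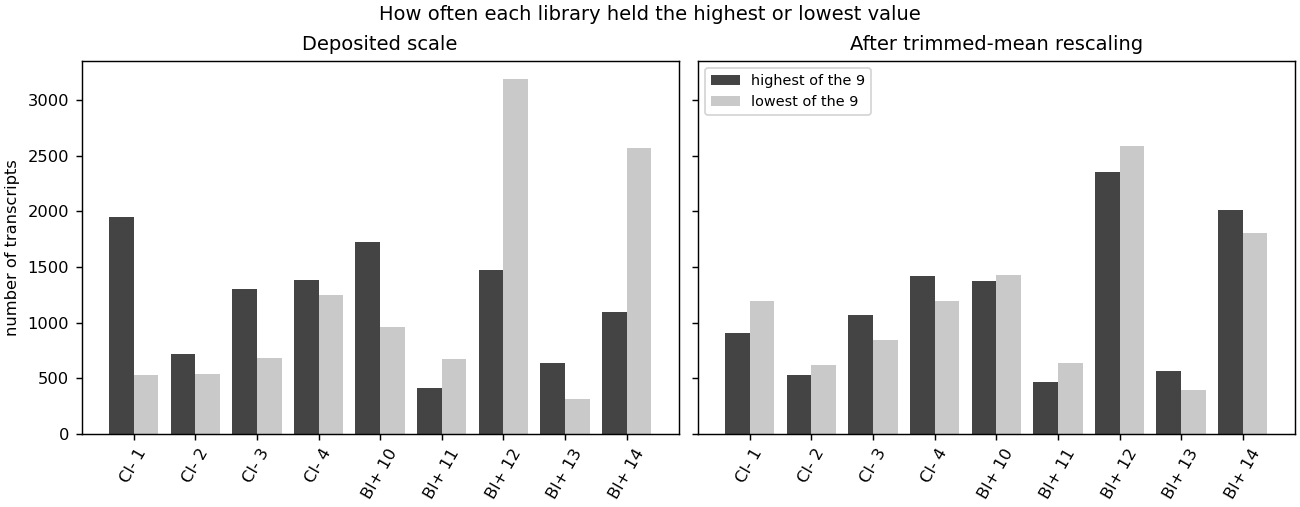
Number of the 10700 transcripts for which each library held the highest (dark) or the lowest (light) of the 9 values, before and after trimmed-mean rescaling. Bl+ replicates 12 and 14 hold the lowest value most often before rescaling (3193 and 2571) and remain most often at either extreme after it.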

How the data were processed

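RNA-seq libraries of pooled bovine cumulus cells were poly-A selected and stranded, per the labels' protocols. The deposited values are TPM per Ensembl transcript. FastQC, fastp and kallisto are named without versions, per the submitters' processing notes, with the genome build not given. Kallisto divides reads among transcripts that share sequence, so the level of an isoform depends on those listed beside it. Depth was read from steps in TPM times effective length: 45.2% to 55.3% of low values (0.5 to 12 fragments) lay within 0.03 of a whole multiple.

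The 10700 transcripts reaching 10 TPM in 4 or more of the 9 libraries were fitted by limma (version 3.58.1, R 4.3.3) with a variance trend, on log2(TPM + 1). Differences on this scale understate changes of low transcripts. Rescaling divided each library by its trimmed mean of log ratios (30% of ratios and 5% of levels trimmed per side). Measures with 1 value per library went through exact permutation tests (126 arrangements, two-sided) (SciPy 1.17.1). The length and abundance contrasts were added after seeing the data.

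The 2 transcripts named per direction had the smallest p among those whose groups did not overlap on both scales. The comparison and lists were chosen with earlier results of these data known. Gene lists, cell type markers and sums per gene were planned, but the reference table (37063 genes, 0 with an Ensembl identifier) matched 0 transcripts. The procedure was tested on simulated data.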

Additional observations from a re-analysis of the deposited data

Results flagged for a closer look

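Cl- replicate 4 stood apart from the other Cl- libraries in its mean distance to its own group. The distance was 0.35063 on the deposited scale, with the other 3 at 0.291 to 0.296, and 0.34801 after rescaling, with the others at 0.288 to 0.292. These were 2 of 26 checks of a library against its group by Dixon's criterion, of which chance gives about 1 in 20, and the scales are not independent of each other. No Bl+ library met the criterion.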

How the results depend on the processing

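The number of calls stayed at 0 in 15 of 20 alternatives on the deposited scale and in 13 of 18 after rescaling. The same settings made calls on both scales: 1 without a filter on low values (a transcript below the minimum), 2 with array weights, 1 without Cl- replicate 4, 1 without Bl+ replicate 14, and 1 with Bl+ replicates 12 and 14 left out (0 to 1 over all libraries left out singly). The last of these settings was chosen after seeing the data. ENSBTAT00000016001.6 and ENSBTAT00000057533.3 passed in none of the alternatives run. The direction of the 4 named transcripts was fixed by picking groups without overlap, so it is no sign of stability. For the values that moved, given below, the cause was not tested, except that a looser filter tests more transcripts and fewer libraries separate more easily.

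On the deposited scale, a filter of 1 TPM gave 841 lower transcripts at an unadjusted p under 0.05, with 349 lower ones without overlap. With no filter these were 1329 lower and 557 higher at that p, and 450 lower and 147 higher without overlap. Array weights gave 835 lower and 443 higher at that p. Quantile normalization gave 299 lower and 450 higher, with 114 and 146 without overlap, and a median difference of 0.0010102, of opposite sign to the main value. With Bl+ replicates 12 and 14 left out there were 302 lower at that p, 363 lower and 210 higher without overlap, and a median difference of -0.016464. Leaving out single libraries gave 262 to 683 lower and 139 to 412 higher at that p, and 265 to 741 lower and 103 to 369 higher without overlap.

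After rescaling, a filter of 1 TPM gave 514 lower at an unadjusted p under 0.05, 184 lower without overlap and a median difference of -0.016457. With no filter there were 823 lower and 852 higher at that p, and 258 lower and 236 higher without overlap. Array weights gave 713 higher. The fit over all 3 groups had a median difference of -0.012711. With Bl+ replicates 12 and 14 left out, 264 lower and 293 higher were without overlap, and the median difference was 0.0039283. Leaving out single libraries gave 175 to 367 lower and 207 to 637 higher at that p, 162 to 405 lower and 162 to 584 higher without overlap, and a median difference of -0.017192 to -0.0019578.

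Among library measures with single libraries left out, the excess distance within Bl+ ran from 0.060392 to 0.15957 (0.057613 to 0.15611 after rescaling). Its unadjusted p was 0.0159 with all libraries and 0.0857 without Bl+ replicate 12 (exact permutation test). Distances were not recomputed for each arrangement, so these 2 values are descriptions only. The difference in median level ran from -0.07792 to -0.03443, with p under 0.05 only without Bl+ replicate 10 (exact permutation p = 0.0286). The difference in the share of the 100 most abundant transcripts ran from 0.92585 to 1.5871 percentage points. Its p was under 0.05 only without Cl- replicate 4 (exact permutation p = 0.0357). These p are unadjusted, and none of the 9 measures passed after adjustment with all libraries. The difference in depth had no fixed sign, from -1.1939 to 2.5413 M fragments, at -1.1939, -1.1417, -1.0659 and -0.1646 without Cl- replicates 2 and 3 and Bl+ replicates 13 and 14. Sums per gene were not run, as no identifier matched. No paired analysis was possible because the labels do not say if any pools shared an animal or a day. Depth limits the lowest transcripts, such as ENSBTAT00000016095.4 in Cl-.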
